A study of Mus musculus with 18 samples.

Results

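The MHC class II genes *H2-Aa*, *H2-Ab1*, *H2-Eb1*, *Cd74*, *H2-DMa*, *H2-DMb1* and *Ciita*, the B cell receptor genes *Cd79a* and *Cd79b*, and the common leukocyte gene *Ptprc* were examined in mouse liver. These 10 genes were chosen by symbol, with earlier results of these data known, and all 10 were found among the 22524 Ensembl genes counted in each mouse. Like 13353 genes in all, they passed a minimum of 10 counts that 50% or more of the A226Y or of the WT mice had to reach, and each had at least 20 counts in every mouse. Levels are given as CPM (reads of a gene scaled to a fixed number of counted reads) after TMM scaling, which corrects each library for its total count and composition.

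RNA was sequenced from the livers of female C57BL/6 mice at 15 months of age, with 1 library per mouse. The A226Y group held 10 mice with a heterozygous knock-in of the *Rps2*-A226Y mutation, which lowers the accuracy of decoding by the ribosome, and the WT group held 8 mice with unmodified *Rps2*. CMV-Cre, a ubiquitously driven Cre recombinase, was carried by the mice of both groups. The comparison asked how the liver transcriptome differs when translation is error-prone. The mutant allele carries a transcriptional stop cassette between *loxP* sites, and its removal by Cre was incomplete in every A226Y mouse according to the methods. A226Y livers are therefore mosaics that also hold cells with only 1 active *Rps2* allele. The allele was made in 129/Sv embryonic stem cells and backcrossed to C57BL/6. Mice are named here by genotype and animal number.

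Class II molecules present peptides from proteins taken up by the cell to CD4+ T cells. An alpha and a beta chain are assembled around the invariant chain, encoded by *Cd74*, and the H2-DM heterodimer exchanges the remaining piece of the invariant chain for a peptide. In liver, class II genes are known to be expressed mainly by dendritic cells, B cells, Kupffer cells and other macrophages, and to a lesser extent by sinusoidal endothelium, whereas hepatocytes express little. CIITA is the coactivator that sets the rate of class II transcription, and interferon gamma induces it in many cell types. CD79A and CD79B form the signalling part of the B cell receptor, and *Ptprc* encodes CD45, a phosphatase of the surface of nearly all leukocytes.

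The shared promoter module through which CIITA acts can be read in the sequences of the chain genes, and 2 of them are shown because these genes moved together between mice. Class II promoters are known for an X box, bound by the RFX complex, and a Y box, bound by NF-Y. RefSeq promoter windows (GRCm38.p6, 250 bases before to 50 bases after the start of a transcript) were used for 6 of the 10 genes, in 8 windows. *H2-Ab1*, *Cd74*, *Ciita* and *Cd79b* were not part of this search. The motif GNAACT (a core of the X box) followed by GATTGG (the Y box) after 10 to 40 bases was searched on both strands, and these letters were chosen after the sequences had been seen. The 130 bases before the start of *H2-Aa* (chr17:34287824-34287953, minus strand) and of *H2-Eb1* (chr17:34305737-34305866, plus strand) read as follows, 5′ to 3′, with both motifs in capitals.
H2-Aa: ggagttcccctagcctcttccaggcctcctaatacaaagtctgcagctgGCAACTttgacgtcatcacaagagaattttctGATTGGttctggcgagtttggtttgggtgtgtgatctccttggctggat
H2-Eb1: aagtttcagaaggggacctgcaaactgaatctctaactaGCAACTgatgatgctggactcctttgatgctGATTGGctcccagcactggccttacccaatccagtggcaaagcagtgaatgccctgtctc
The motifs began 81 and 49 bases before the start in *H2-Aa*, and 91 and 60 bases before it in *H2-Eb1*. They were 26 and 25 bases apart. *H2-DMb1* held the same pair in the same order, 94 and 62 bases before the start and 26 bases apart. The pair was not in the windows of *H2-DMa* (2 windows), *Ptprc* (2 windows) or *Cd79a* (1 window), although the second window of *H2-DMa* held each motif once. Over all 32851 promoter windows, GNAACT was in 42.8%, GATTGG in 16.1%, and the pair in this order and distance in 154 (0.469%).

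The libraries held 23850565 to 62126131 counts in the A226Y mice and 25869192 to 34918732 in the WT mice. Only A226Y mouse 23 was above the WT range. The targeted gene, *Rps2*, was at 68.6 ± 13.3 CPM in A226Y (SD, n = 10) and 114 ± 13.03 CPM in WT (n = 8), and all A226Y mice (46.9 to 83.0 CPM) were below all WT mice (104 to 143 CPM). The reads of the mutant and the intact allele are not separated in this value. Of the 13353 genes, edgeR's quasi-likelihood test called 939 lower (7.03%) and 971 higher (7.27%) in A226Y at a Benjamini-Hochberg adjusted p under 0.05.

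Of the class II genes among the members, 6 of 7 were lower in the liver of A226Y mice. The chain genes *H2-Aa*, *H2-Ab1* and *H2-Eb1*, the invariant chain gene *Cd74*, and the peptide loading genes *H2-DMa* and *H2-DMb1* were at 54.2% to 57.9% of the WT level. Of the 10 members 6 were called lower, against 7.03% of all genes, and 0 were called higher by edgeR, DESeq2 or limma-voom (0 at an unadjusted p under 0.05), against 7.27%. The members were chosen with earlier results of these data known, and the 6 called genes rose and fell together over the mice. The count is therefore a description. The log2 fold change was negative for all 10, with a median of -0.81, against -0.0044 over all 13353 genes. The other 4, *Ciita*, *Cd79a*, *Cd79b* and *Ptprc*, did not pass the test. With surrogate variables in the fit, as described further on, 0 of the 10 were called. The plot of levels by mouse shows the spread behind these values. In bulk liver RNA, fewer class II expressing cells and less class II RNA per cell cannot be told apart.

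**Figure D1:**
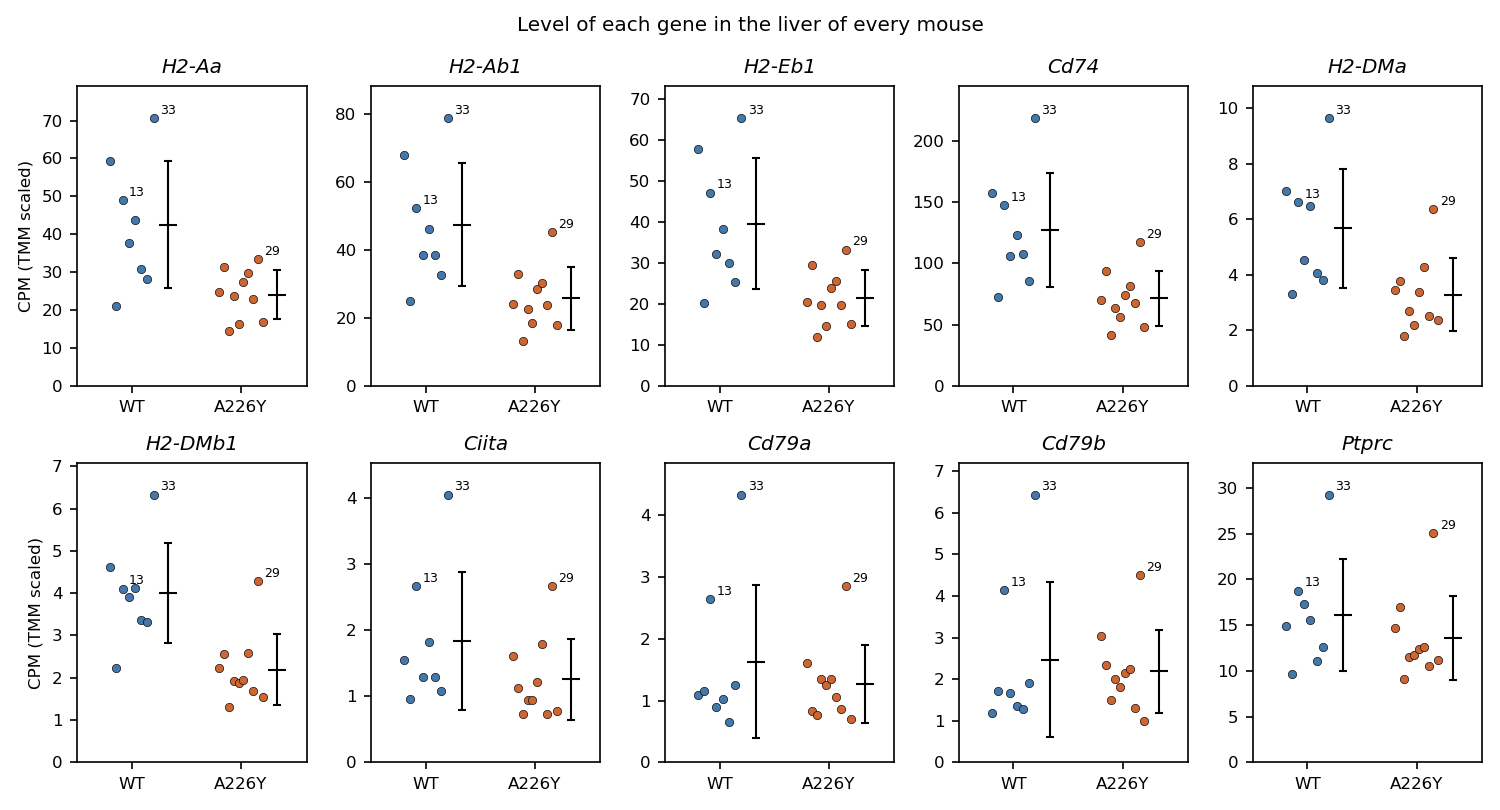
CPM (TMM scaled) of the 10 genes in each mouse, on linear axes from 0, for 8 WT (blue) and 10 A226Y (orange) mice. Each point is 1 mouse, the black mark and bar beside each group are the mean ± SD, and mice 13, 29 and 33 are numbered. WT mouse 33 is the highest point in every panel, and for *H2-Aa*, *H2-Ab1*, *H2-Eb1* and *Cd74* all 10 A226Y mice are below the WT mean.

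*H2-Aa* (ENSMUSG00000036594, GRCm38 chromosome 17, 34282744 to 34287823, minus strand) encodes the alpha chain of the I-A molecule. Its level ran from 14.4 to 33.4 CPM in A226Y (median 24.2) and from 20.98 to 70.6 CPM in WT (median 40.7). The groups overlapped, with 3 A226Y mice below the lowest WT mouse and all 10 below the WT mean. The log2 fold change was -0.82 (SE 0.21, edgeR adjusted p = 0.0138).

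*H2-Ab1* (ENSMUSG00000073421, chromosome 17, 34257689 to 34269419, plus strand) encodes the beta chain of the same molecule. It was at 13.1, 17.96, 18.6, 22.5, 23.9, 23.96, 28.5, 30.3, 32.8 and 45.3 CPM in A226Y mice 7, 32, 15, 11, 23, 3, 18, 22, 5 and 29. In WT mice 6, 28, 24, 14, 21, 13, 4 and 33 it was at 24.9, 32.5, 38.5, 38.6, 46.0, 52.3, 67.9 and 78.7 CPM. Thus 6 of the A226Y mice were below every WT mouse, while A226Y mouse 29 was above 4 of the 8 WT mice. Group means were 25.7 ± 9.13 and 47.4 ± 18.2 CPM, and the log2 fold change was -0.88 (SE 0.22, adjusted p = 0.0132).

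*H2-Eb1* (ENSMUSG00000060586, chromosome 17, 34305867 to 34316674, plus strand) encodes the beta chain of I-E. It ranged from 12.1 to 33.3 CPM in A226Y (median 20.2) and from 20.2 to 65.4 CPM in WT (median 35.3), with 5 A226Y mice below the lowest WT mouse. The log2 fold change was -0.88 (SE 0.22, adjusted p = 0.0125).

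*Cd74* (ENSMUSG00000024610, chromosome 18, 60803848 to 60812652, plus strand), the invariant chain gene, had the highest level of the 10. It ranged from 41.8 to 117 CPM in A226Y (median 68.8) and from 72.5 to 218 CPM in WT (median 115). Again 6 A226Y mice were below the lowest WT mouse, and all 10 were below the WT mean. The log2 fold change was -0.83 (SE 0.20, adjusted p = 0.0112).

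The genes of the peptide exchange factor were lower by about as much at levels of a few CPM. *H2-DMa* (ENSMUSG00000037649, chromosome 17, 34119541 to 34139101, plus strand) ranged from 1.81 to 6.38 CPM in A226Y (median 3.05) and from 3.32 to 9.65 CPM in WT (median 5.50), a log2 fold change of -0.79 (SE 0.23, adjusted p = 0.029). *H2-DMb1* (ENSMUSG00000079547, chromosome 17, 34153072 to 34160230, plus strand) ranged from 1.31 to 4.29 CPM in A226Y (median 1.94) and from 2.22 to 6.33 CPM in WT (median 4.003), a log2 fold change of -0.86 (SE 0.21, adjusted p = 0.0101). In both genes A226Y mouse 29 was above the WT median, and the other 9 A226Y mice were below the WT mean. *H2-DMb1* has a near-identical neighbour, *H2-DMb2*, and how reads were divided between them is uncertain. The call of *H2-DMa* is the least firm of the 6, since it was lost (adjusted p 0.0513 to 0.0624) when A226Y mouse 7, 11 or 32 or WT mouse 4, 13, 21 or 33 was left out.

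*Ciita* (ENSMUSG00000022504, chromosome 16, 10480059 to 10528418, plus strand), the coactivator gene, had the lowest level of the class II genes. It ranged from 0.731 to 2.67 CPM in A226Y (median 1.04) and from 0.967 to 4.06 CPM in WT (median 1.42). Although 5 A226Y mice were below the lowest WT mouse, A226Y mice 3, 22 and 29 were above the WT median, and the difference did not pass the test (log2 fold change -0.55, 95% interval -1.18 to 0.09, adjusted p = 0.231). Without WT mouse 33 it was -0.27.

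The B cell receptor genes overlapped widely between the groups. *Cd79a* (ENSMUSG00000003379, chromosome 7, 24897381 to 24902197, plus strand) ranged from 0.703 to 2.85 CPM in A226Y (median 1.16) and from 0.661 to 4.34 CPM in WT (median 1.13), and the log2 fold change of -0.36 had a 95% interval of -1.09 to 0.37 (adjusted p = 0.511). *Cd79b* (ENSMUSG00000040592, chromosome 11, 106311341 to 106314762, minus strand) ranged from 0.984 to 4.50 CPM in A226Y (median 2.07) and from 1.18 to 6.43 CPM in WT (median 1.69), with a log2 fold change of -0.16 (95% interval -0.88 to 0.55, adjusted p = 0.787). The sign of both values rested on WT mouse 33, without which they were 0.03 and 0.21. The intervals still allow a change of the size seen in the class II genes for *Cd79a* and, at its lower end, for *Cd79b*.

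*Ptprc* (ENSMUSG00000026395, chromosome 1, 138062861 to 138175708, minus strand) ranged from 9.16 to 25.1 CPM in A226Y (median 12.1) and from 9.64 to 29.3 CPM in WT (median 15.2). Only 1 A226Y mouse was below the lowest WT mouse. The log2 fold change was -0.25 (95% interval -0.68 to 0.18, adjusted p = 0.432). In this fit the interval did not reach the values of the 6 class II genes, although it overlapped their intervals. It was -0.071 without WT mouse 33, -0.39 without A226Y mouse 29 and -0.38 with a length offset, and it passed the threshold in none of these fits.

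**Figure D2:**
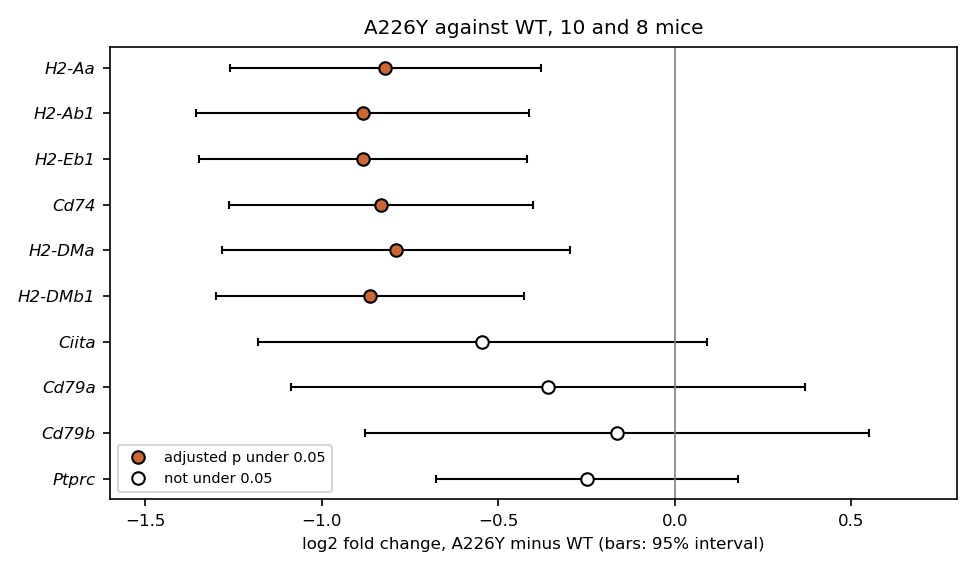
Log2 fold change (A226Y minus WT) of each gene on the horizontal axis, with its 95% interval as a bar, from edgeR's quasi-likelihood fit of 10 A226Y and 8 WT mice. Filled points passed the adjusted p of 0.05: the 6 class II genes between -0.88 and -0.79 did, and *Ciita*, *Cd79a*, *Cd79b* and *Ptprc* did not.

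The exact permutation test of mean log2 CPM, run for every tested gene over the 43758 ways to divide the mice into groups of 10 and 8, called 5 of the 10 members lower, where 6.16% of all genes were. Raw p was 0.00505 for *H2-Aa*, 0.00309 for *H2-Ab1*, 0.00389 for *H2-Eb1*, 0.00229 for *Cd74* and 0.00137 for *H2-DMb1*. For *H2-DMa* it was 0.00713, which missed the threshold after adjustment (0.0523). It was 0.118 for *Ciita*, 0.539 for *Cd79a*, 0.949 for *Cd79b* and 0.303 for *Ptprc*.

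Adding 4 surrogate variables, which are covariates estimated from the expression matrix itself, to the fit ended the call of all 6 class II genes. Their log2 fold changes were then -0.40 to -0.53 with adjusted p of 0.0515 to 0.292, in a fit that called 248 genes in all in place of 1910.

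Mice differed widely in leukocyte RNA, and a few stood high. WT mouse 33 ranked first of the 18 mice for each of the 10 genes. For *Cd79a* it was at 4.34 CPM, followed by A226Y mouse 29 at 2.85 CPM and WT mouse 13 at 2.64 CPM, and the other 15 mice were at 0.661 to 1.61 CPM. The order of these 3 mice was the same for *Cd79b*, at 6.43, 4.50 and 4.14 CPM, with the next mouse, A226Y mouse 3, at 3.04 CPM. WT mouse 33, A226Y mouse 29 and WT mouse 13 were also the top 3 for *Ptprc*, at 29.3, 25.1 and 18.8 CPM. One of these 3 mice was A226Y and the others WT.

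High B cell receptor RNA and high class II RNA did not always occur in the same animal. WT mouse 4 ranked second of 18 for each of the 6 class II genes that were called lower, and 10th for *Cd79a* and 17th for *Cd79b*. A226Y mouse 29, second for both B cell receptor genes, ranked 3rd to 6th for these class II genes. A226Y mouse 7 ranked last for all 6 and for *Ptprc*, and 16th and 13th for *Cd79a* and *Cd79b*. WT mouse 6 was the lowest WT mouse for the class II genes, at ranks 12 to 15. The heat map of all mice shows these rows.

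**Figure D3:**
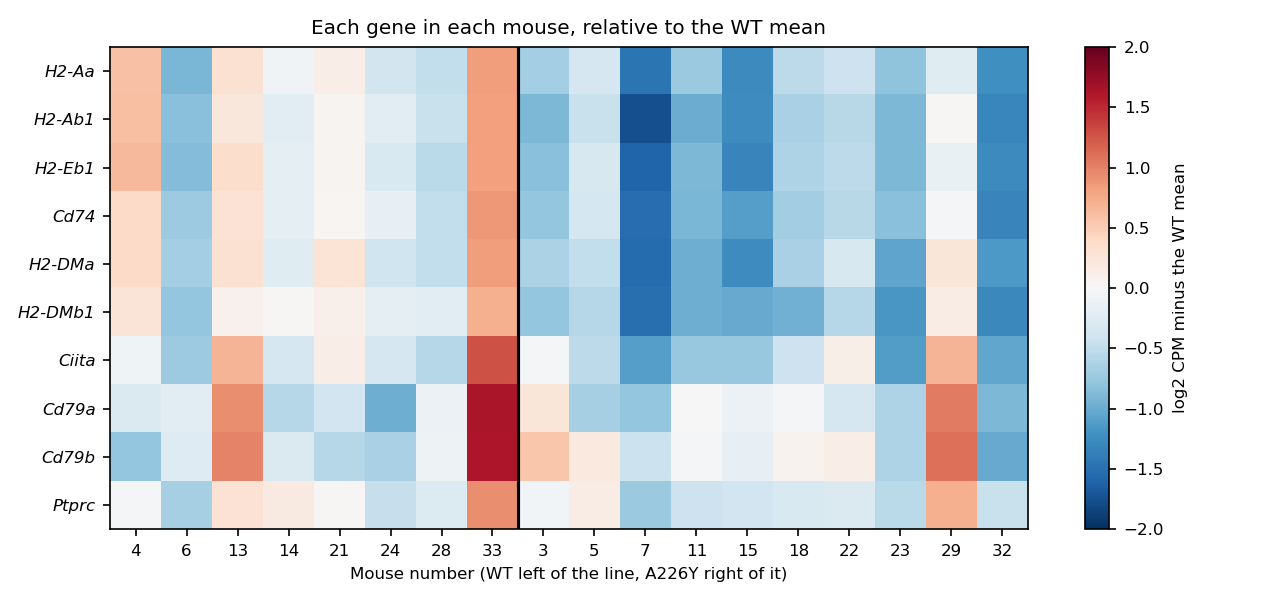
Log2 CPM of each gene (rows) in each mouse (columns, 8 WT left of the line and 10 A226Y right of it), minus the mean of the WT mice, with red for higher and blue for lower. The 6 upper rows are blue in most A226Y columns and down to -1.76 for *H2-Ab1* in mouse 7, while *Cd79a* and *Cd79b* are red mainly in mice 13, 33 and 29 (up to 1.63).

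The 3 mice with the most *Cd79a* were left out together as an alternative chosen after the data had been seen. The 6 class II genes were still called lower, with log2 fold changes of -0.67 (*H2-Aa*), -0.81 (*H2-Ab1*), -0.75 (*H2-Eb1*), -0.71 (*Cd74*), -0.73 (*H2-DMa*) and -0.87 (*H2-DMb1*) and adjusted p of 0.00587 to 0.0362. *Ciita* was at -0.28 and *Ptprc* at -0.13, while *Cd79a* (0.10) and *Cd79b* (0.34) turned to positive values. None of these 4 was called in either fit.

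The log2 ratio of *H2-Ab1* to another gene within each mouse was also computed, for 6 genes of which 5 are given here. *H2-Ab1* had the most negative log2 fold change of the 10 members and the other genes were chosen after the data had been seen, so these ratios are a description with no test. Relative to *Ptprc*, the log2 ratio was 0.90 ± 0.26 in A226Y and 1.54 ± 0.32 in WT, a difference of -0.64, and 7 of the 10 A226Y mice were below every WT mouse. Relative to *Cd79b* the difference was -0.85 and relative to *Cd79a* -0.66, with 5 A226Y mice below every WT mouse in each. Against *Ciita* it was -0.38, and against *Adgre1*, the gene of the macrophage antigen F4/80, -0.37, with 8 of the 10 A226Y mice below the WT mean in both.

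Over mice, the class II genes varied together. *H2-Ab1* and *Cd74* had a Pearson r of 0.99 over the 18 mice (Spearman rho 0.998), and of 0.99 within the A226Y mice and 0.98 within the WT mice. Permutation p was 1e-05 pooled, the smallest that 100000 resamples can give, and 3e-05 after adjustment over 6 pairs. *H2-Ab1* with *Ciita* gave r = 0.82 pooled (rho 0.84, permutation p 4e-05 and 3e-05), 0.81 within A226Y and 0.84 within WT, and *H2-Ab1* with *Ptprc* gave 0.78 (rho 0.80, permutation p 0.0001 and 0.00019), 0.86 and 0.82. Leaving out the 2 mice farthest from the median of *H2-Ab1*, WT mouse 33 and A226Y mouse 7, left pooled r at 0.99, 0.73 and 0.64 for these 3 pairs. Within WT, without mice 33 and 6, r was 0.97, 0.61 and 0.44, and within A226Y, without mice 29 and 7, it was 0.97, 0.59 and 0.62. The plots of *H2-Ab1* against *Cd74*, *Ciita* and *Cd79a* show the difference.

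*H2-Ab1* with *Cd79a* gave r = 0.55 (permutation p = 0.0184) and rho = 0.32 (permutation p = 0.193), which fell to r = 0.28 without those 2 mice, and within A226Y from 0.63 to 0.06 without A226Y mice 29 and 7. This relation therefore rests on a few mice. *Cd79a* and *Cd79b* gave r = 0.91 (rho 0.78, permutation p 1e-05 and 0.00033), 0.87 within A226Y and 0.96 within WT, and 0.81 without WT mouse 33 and A226Y mouse 29. Within WT it was 0.46 without mice 33 and 13, and within A226Y 0.64 without mice 29 and 32. *Cd79a* with *Ptprc* gave 0.77 (rho 0.54, permutation p 0.0006 and 0.0229), 0.74 and 0.79, and 0.44 without the same 2 mice. Within WT it was 0.00086 without mice 33 and 13. After adjustment over the 6 pairs, the permutation p of the pooled r was at most 0.0184 and that of rho at most 0.0275, except for *H2-Ab1* with *Cd79a* (rho, 0.193). Each value shares library and scaling with its partner.

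**Figure D4:**
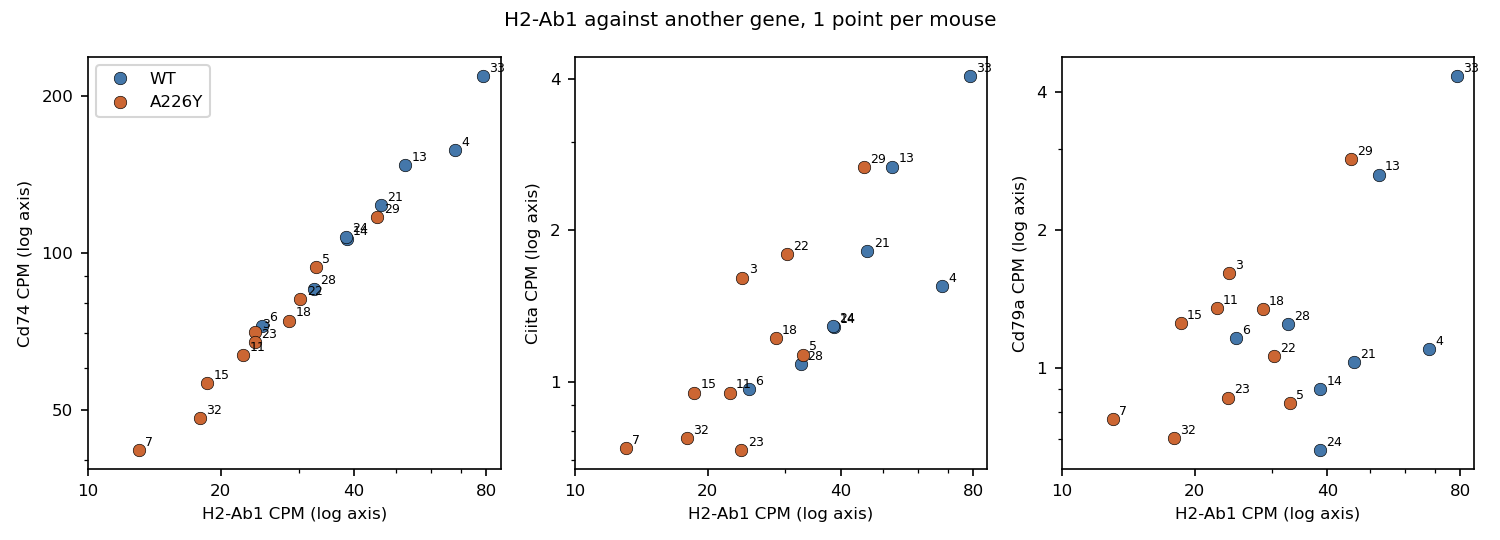
*H2-Ab1* CPM on the horizontal axis against *Cd74*, *Ciita* and *Cd79a* CPM, all on log axes, with 1 numbered point per mouse (WT blue, A226Y orange). The points lie along 1 line for *Cd74* (r = 0.99) and more loosely for *Ciita* (r = 0.82), and *Cd79a* (r = 0.55) sets only mice 13, 29 and 33 apart.

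After the genotype mean was taken from each gene, the 5 genes most like *H2-Ab1* over the 18 mice among all 13353 were *H2-Eb1*, *Cd74*, *H2-Aa*, *H2-DMa* and *H2-DMb1*, with r from 0.99 down to 0.93. *Ptprc* ranked 18th (r = 0.84), *Ciita* 36th (0.82), *Cd79a* 654th (0.60) and *Cd79b* 710th (0.59). The most alike genes outside the 10 were *Calhm6* (0.88), *Arhgap30* (0.87), the DNA sensor gene *Aim2* (0.87), the interferon-induced *Epsti1* (0.86) and the integrin gene *Itgb7* (0.86). With all mice none of these 5 passed edgeR's test between genotypes, and *Calhm6* did with DESeq2 (adjusted p = 0.035), with log2 fold changes from -0.66 (*Calhm6*, adjusted p = 0.0643) to -0.18 (*Aim2*, adjusted p = 0.648). Without A226Y mouse 29, however, *Calhm6*, *Arhgap30*, *Epsti1* and *Itgb7* were called lower (-0.50 to -0.78, adjusted p 0.0193 to 0.0469), *Calhm6* also without WT mouse 6 (adjusted p = 0.0185). Without WT mouse 33 *Arhgap30* was at -0.17, *Epsti1* at -0.28 and *Aim2* at 0.06. For *Cd79a* the genes most alike outside the 10 included the B cell genes *Ms4a1* (0.92) and *Ikzf3* (0.92), then *Chst3* (0.92) and the inhibitory receptor gene *Btla* (0.91), and *Cd79b* ranked second (0.92). The log2 fold changes of *Ms4a1*, *Ikzf3*, *Chst3* and *Btla* were -0.26, -0.46, 0.28 and 0.06, with adjusted p of 0.379 to 0.923. Without WT mouse 33, *Ikzf3* was at -0.0037 and *Chst3* at 0.56, and without A226Y mouse 29 *Chst3* was at 0.12.

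Levels between genes were compared per kilobase of exons (CPM per kb, median of the 18 mice). *Cd74* was highest at 49.7, in every mouse above the next gene, and *H2-Eb1* (13.2), *H2-Ab1* (12.2) and *H2-Aa* (7.60) followed. *H2-DMb1* (1.53), *Cd79b* (1.30), *H2-DMa* (1.10), *Cd79a* (0.775) and *Ptprc* (0.688) came next, and neighbours among these 5 traded places, the upper gene being above the next in 8 to 13 of the 18 mice. Their order also differed by genotype. The WT medians ran from *H2-DMb1* (2.38) through *H2-DMa* (1.596), *Cd79b* (1.18) and *Ptprc* (0.831) to *Cd79a* (0.775), and the A226Y medians from *Cd79b* (1.45) through *H2-DMb1* (1.15), *H2-DMa* (0.885) and *Cd79a* (0.793) to *Ptprc* (0.659). *Ciita* was lowest at 0.132, in every mouse. With the length of the principal transcript in place of all exons, *Cd74* (59.2) and *Ciita* (0.209) kept their places, *H2-Eb1* (15.3) went from 2nd to 4th, below *H2-Aa* in all 18 mice, *H2-Ab1* (25.9) and *H2-Aa* (25.6) could not be ordered (7 of 18 mice had more *H2-Ab1*), and *Ptprc* (2.68) was 5th.

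Other genes of the pathway were read from lists of known members. Of the other class II chains, *H2-Oa* (log2 fold change -0.95, adjusted p = 0.111), *H2-DMb2* (-0.31, adjusted p = 0.598) and *H2-Ob* (-0.16, adjusted p = 0.767) were tested, and none was called by edgeR, DESeq2 or limma-voom (1 had an unadjusted p under 0.05 in edgeR). *H2-Oa* and *H2-Ob* encode the inhibitor of H2-DM, known mainly from B cells. Without the 3 mice highest in *Cd79a*, *H2-Ob* was at 0.38 and *H2-DMb2* at 0.10. *H2-Oa* was called lower only when A226Y mouse 29 was left out (-1.19, adjusted p = 0.0351). It was at -0.69 without WT mouse 13, at -0.68 without WT mouse 33 and at -0.47 (adjusted p = 0.283) without all 3.

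Of 10 genes that process antigen or costimulate T cells, 2 were called lower, where 7.03% of all genes were, both encoding cathepsins, and 0 were called higher by edgeR or limma-voom (1 at an unadjusted p under 0.05 in edgeR, and 1 called by DESeq2). At an unadjusted p under 0.05 edgeR had 4 lower, and without the 3 mice highest in *Cd79a* 4 were called lower. Another cathepsin gene, *Ctsl*, was at 0.40 (adjusted p = 0.0649). *Ctsb* was at 673 ± 83.9 CPM in A226Y and 856 ± 110 CPM in WT (log2 fold change -0.35, adjusted p = 0.0146), and *Ctsh* at 341 ± 27.1 and 398 ± 11.9 CPM (-0.22, adjusted p = 0.013). These are also expressed outside antigen presenting cells, and with surrogate variables neither was called (-0.12, adjusted p = 0.292, and -0.21, adjusted p = 0.052). *Ctss*, the protease that trims the invariant chain, was at -0.39 (adjusted p = 0.241), and *Cd86*, a costimulatory ligand, at -0.48 (adjusted p = 0.088).

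Genes of the proteins that assemble on the class II promoter had values on both sides of 0. Of the RFX, NF-Y and CREB genes and their coactivators, 9 were tested. Their median was 0.10 (log2), and *Creb1* was called higher (0.24, adjusted p = 0.0381), a call lost in 12 of the 18 fits that left out 1 mouse. It was also lost with the length offset (0.12, adjusted p = 0.271), the GC offset, limma-voom, surrogate variables and without the filter (adjusted p 0.0538 to 0.175). *Rfx5*, *Rfxank* and *Rfxap*, the 3 RFX subunits, were at -0.14, -0.02 and 0.10 with adjusted p of 0.268, 0.863 and 0.419.

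Of 24 tested genes of interferon gamma signalling and its targets, 12 were called lower, where 7.03% of all genes were, and 0 higher (0 at an unadjusted p under 0.05, and 0 with DESeq2 or limma-voom), and the median was -0.53 on the log2 scale. The chemokine gene *Cxcl10* was at 1.94 ± 0.61 CPM in A226Y and 4.01 ± 2.12 CPM in WT (-1.05, adjusted p = 0.0121). The guanylate binding protein gene *Gbp3* was at 6.09 ± 3.10 and 12.2 ± 5.53 CPM (-0.99, adjusted p = 0.0251). *Irf1*, an interferon-induced transcription factor gene, was at -0.42 (adjusted p = 0.00865). Of the receptor and kinase genes, *Ifngr2* was called lower (-0.24, adjusted p = 0.0374), and *Ifngr1* (-0.03), *Jak1* (0.08) and *Jak2* (0.06) were not called. Without the 3 mice highest in *Cd79a* 11 were called, but without WT mouse 14 the count fell to 5, and *Gbp3* lost its call (adjusted p = 0.0636). With surrogate variables 0 of the 24 were called, and the median was -0.10.

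Of 19 B cell markers 1 was called lower, where 7.03% of all genes were (2 by DESeq2 and 0 by limma-voom). This was *Vpreb3*, with a log2 fold change of -1.67 (adjusted p = 0.0199), at 0.227 ± 0.131 and 0.702 ± 0.631 CPM, a call lost without WT mouse 21 (-1.16, adjusted p = 0.0641). The median of the list was -0.26, and 0.03 without the 3 mice highest in *Cd79a*. Of 19 plasma cell and immunoglobulin genes, 4 were called lower, all encoding the lambda light chain: *Iglv2* (-4.51), *Iglc2* (-2.97), *Iglc1* (-2.23) and *Iglv1* (-2.11). *Iglc1* and *Iglv1* are named here after their values were seen. *Iglv2* reached 33.8 CPM and *Iglc2* 45.6 CPM in WT mouse 13, against medians of 0.404 and 1.10 CPM in WT, and without that mouse they were at -0.63 (adjusted p = 0.393) and -0.49 (adjusted p = 0.443). The exact permutation test gave p of 0.166 and 0.118. Of the whole list DESeq2 called 2 lower and 1 higher, limma-voom 0 in either direction, and the fit with surrogate variables 0 lower and 1 higher. Without the 3 mice highest in *Cd79a* 0 were called lower and 1 higher, and the median of the list went from -0.88 to 0.14.

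Other cells that carry class II molecules or CD45 were read from their markers, since their amount could move with the members. Of 15 Kupffer cell and macrophage markers, 1, the Kupffer cell lectin *Clec4f*, was called lower, at 109 ± 44.8 CPM in A226Y and 170 ± 37.8 CPM in WT (-0.65, adjusted p = 0.0261, 0.0577 without WT mouse 14), and the median of the list was -0.42. DESeq2, limma-voom and the fit with surrogate variables each called 2 of the 15 lower. Without the 3 mice highest in *Cd79a*, 9 of the 15 were called lower, with a median of -0.53. Their summed level was 534 to 1935 CPM in A226Y (median 714) and 784 to 1613 CPM in WT (median 1104), highest in A226Y mouse 29 and WT mouse 33. The part of these cells in the lower class II level was not tested.

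The log2 fold change was below 0 for all 16 pan-leukocyte genes (median -0.33), of which 0 were called by edgeR, DESeq2 or limma-voom (4 lower at an unadjusted p under 0.05 in edgeR, and 2 called lower without the 3 mice highest in *Cd79a*). The most abundant, *Lcp1*, was at 79.5 ± 7.83 and 80.2 ± 7.14 CPM. Their summed level was 169 to 313 CPM in A226Y and 188 to 321 CPM in WT. Of 11 dendritic cell markers 0 were called by edgeR (4 lower at an unadjusted p under 0.05, 1 called lower by DESeq2 and 1 by limma-voom), with a median of -0.39, and *Sirpa* was at -0.20. Of 20 T cell markers 0 were called by edgeR (8 lower at an unadjusted p under 0.05, 1 by DESeq2 and 0 by limma-voom), with a median of -0.44, and *Zap70* was at -0.39. *Zap70* was called lower when A226Y mouse 15 was left out (-0.51, adjusted p = 0.0353). Of 9 NK cell markers the transcription factor gene *Tbx21* was called lower (-0.87, adjusted p = 0.023, 0.056 without WT mouse 13).

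Monocyte and neutrophil markers had a median above 0 (0.54 over 11 genes), with 0 called by edgeR or limma-voom (1 higher at an unadjusted p under 0.05) and 1 called lower by DESeq2, which gave a median of -0.20. Without the 3 mice highest in *Cd79a* the median was -0.067, and the summed level was 87.9 CPM in A226Y mouse 29 against an A226Y median of 13.5 CPM. *Plac8* was at -0.23, and at -0.67 (adjusted p = 0.027) without A226Y mouse 29. DESeq2 put it at -0.65 (adjusted p = 0.0108). *Cxcl13*, which draws B cells into follicles, was the 1 of 5 tested lymphoid tissue genes to be called, at 15.3 ± 14.4 CPM in A226Y and 6.01 ± 2.85 CPM in WT (1.35, adjusted p = 0.0447), with 48.5 CPM in A226Y mouse 29 and a call lost in 10 of the 18 fits that left out 1 mouse. *Ccl19* and *Ccl21a*, known from lymph nodes, were at 0 in every mouse, and whether reads of these 2 genes could be counted was not tested.

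Highest summed levels fell on the same 2 animals for most leukocyte lists. A226Y mouse 29 led the A226Y mice for the summed B cell, NK cell, dendritic cell, Kupffer cell, monocyte and neutrophil, and pan-leukocyte markers, and WT mouse 33 led the WT mice for the same 6 lists and for T cell and immunoglobulin genes. The same 2 mice also led their groups for red blood cell genes (422 CPM in mouse 29 and 764 CPM in mouse 33, against medians of 252 and 263 CPM) and for proliferation genes, and WT mouse 33 for hepatocyte markers. The part of these differences in the members' levels was not tested. Summed B cell markers were at 35.2 to 78.7 CPM in A226Y and 39.7 to 93.2 CPM in WT.

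**Figure D5:**
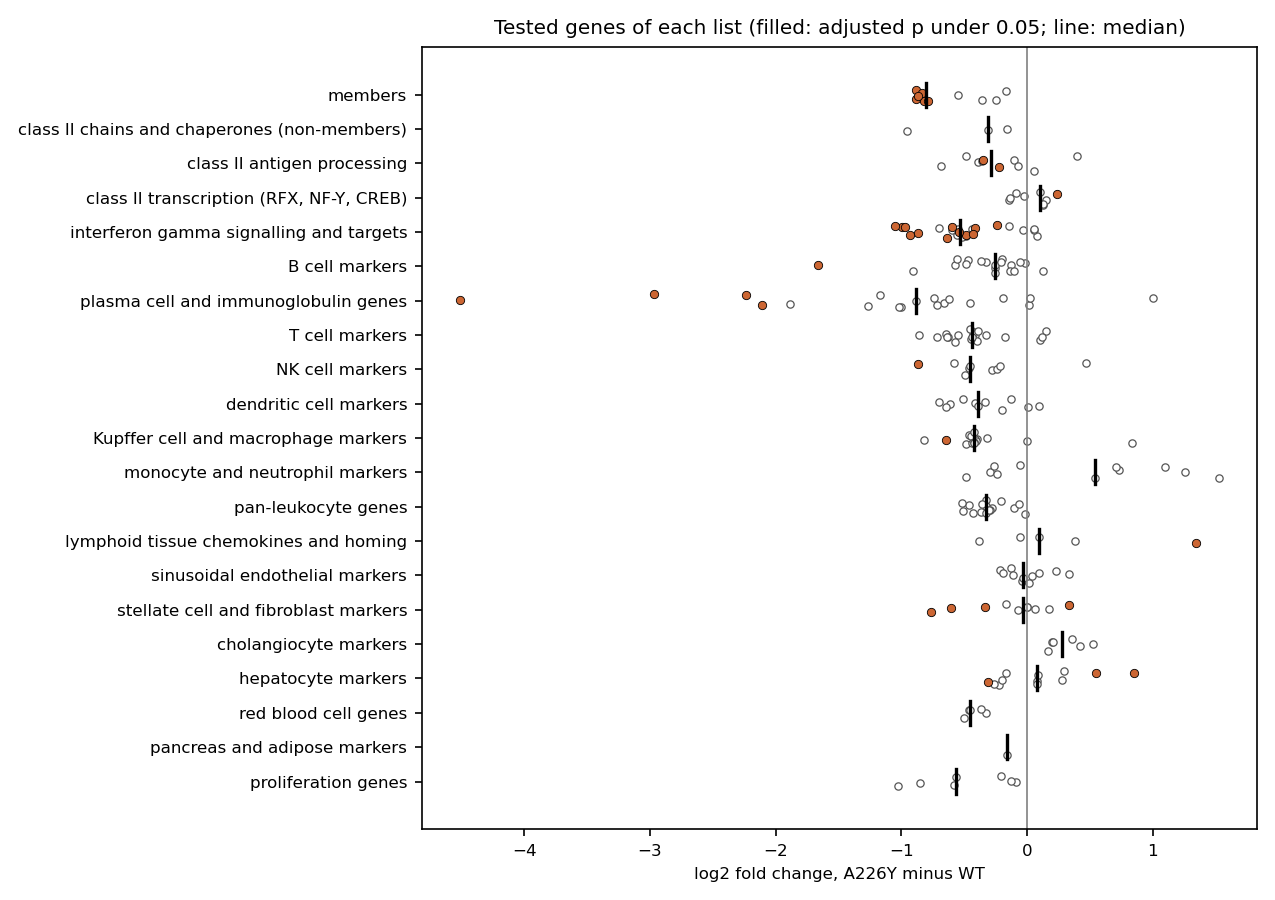
Log2 fold change (A226Y minus WT) of the tested genes of each list, 1 point per gene, filled where the adjusted p of edgeR was under 0.05, with a black line at the median of the list. The 10 members (top row, median -0.81) and the interferon gamma list (median -0.53) hold most of the filled points to the left of 0.

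Cells of the liver itself were checked in the same fit. Hepatocyte markers were abundant in every library, with a summed level of 86124 to 158713 CPM in A226Y and 101495 to 188330 CPM in WT. Of 11 sinusoidal endothelial markers 0 were called by edgeR, DESeq2 or limma-voom (1 lower and 1 higher at an unadjusted p under 0.05), with a median of -0.03, and *Ehd3* was at 0.23. Of 10 stellate cell and fibroblast markers 3 were called lower, among them the collagen genes *Col1a1* (-0.77) and *Col3a1* (-0.60), and 1 higher. Of 12 hepatocyte markers 2 were called higher, the amino acid and urea cycle enzyme genes *Tat* (0.85, a call lost in 6 of the 18 fits that left out 1 mouse) and *Cps1* (0.55), and 1 lower. With surrogate variables 0 genes of these last 2 lists were called in either direction. No cholangiocyte marker (6 tested, median 0.28, *Spp1* at 0.21), red blood cell gene (5, median -0.45, *Hbb-bs* at -0.33), pancreas or adipose marker (1, *Cela2a* at -0.16) or proliferation gene (7, median -0.56, *Pcna* at -0.12) was called by edgeR, DESeq2 or limma-voom, and at an unadjusted p under 0.05 edgeR had 1, 0, 0 and 2. With surrogate variables *Spp1* was called higher (0.81, adjusted p = 0.0249), and the median of the cholangiocyte list was 0.58.

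The 5 class II members with an H2 symbol lie near *Rps2* on chromosome 17, which bears on the design since the targeted chromosome came from 129/Sv cells. *H2-DMa*, *H2-DMb1*, *H2-Ab1*, *H2-Aa* and *H2-Eb1* are 9.4 to 9.58 Mb from it, and for them an effect of the mutation and one of a linked 129/Sv segment cannot be told apart. *Cd74* is on another chromosome and had a log2 fold change of -0.83, and whether its level depends on a linked segment was not tested. Of the 173 tested genes between *Rps2* and *H2-DMa*, 18 were called lower (10.4%) and 9 higher (5.2%), and on the rest of chromosome 17 these shares were 8.46% and 7.38% of 461. Among the members, from *H2-DMa* to *H2-Eb1*, 7 other genes were tested, and 3 were called lower: *Psmb9* (-0.81, adjusted p = 0.0183), *Psmb8* (-0.67, adjusted p = 0.0177) and *Tap1* (-0.52, adjusted p = 0.0447). They encode 2 subunits of the immunoproteasome and a peptide transporter of class I presentation, and are named here after their values were seen.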

How the data were processed

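Per the labels, reads were processed with bcl2fastq, fastp, STAR, featureCounts and MultiQC on GRCm38, whereas the study's methods name RSEM and an Ensembl annotation, so the source of the gene counts is not settled. The authors deposited whole-number read counts per Ensembl gene, 1 file per mouse, not normalized. Strandedness is not given in the sources used here. Groups came from the genotype labels, and symbols and positions from GENCODE M21. Genes reaching 10 counts in 50% or more of either group were tested with edgeR 4.0.16 (R 4.3.3; TMM, quasi-likelihood, no covariates, Benjamini-Hochberg over 13353 genes). The standard error is the fold change over the root of F, and 95% intervals use 16 degrees of freedom. Total counts of at least 23850565 keep counting error small except for genes near 20 counts, and the common biological coefficient of variation between mice was 0.194. Alternatives were RLE or library size scaling, 2 other filters, DESeq2 1.42.0, robust edgeR, limma-voom 3.58.1, 4 surrogate variables (sva 3.50.0), offsets for length or GC content (pseudocount 0.5), and leaving out mice. Exact permutation tests and correlations used scipy 1.17.1. The tests were tested on simulated data. Genes named are the 10 members, the other class II chains, the 2 largest called changes of each list (the most abundant gene where none was called), *Rps2*, and the 5 genes most like *H2-Ab1* and *Cd79a*, with further list members where their role is described. The members and lists were chosen with earlier results of these data known. The values of some single genes are left out here.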

Additional observations from a re-analysis of the deposited data

Results flagged for a closer look

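In 4 of the 20 gene and genotype groups 1 mouse stood apart from the others by Dixon's criterion, applied to CPM. The groups hold the same mice for every gene, and many of these genes vary together. The count therefore has no chance rate to be set against. Among the A226Y mice it was mouse 29 for *H2-DMb1* (4.29 CPM, next 2.58), *Cd79a* (2.85 CPM, next 1.61) and *Ptprc* (25.1 CPM, next 16.99). Among the WT mice it was mouse 33 for *Ptprc* (29.3 CPM, next 18.8). WT mouse 33 was the highest for all 10 genes, but for the other 9 its gap to the next mouse was within the limit.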

How the results depend on the processing

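No paired analysis was possible because the 2 genotypes share no replicate numbers. Of the 10 alternatives that keep all mice, only the surrogate variables moved the following 3 counts by over 1.5 times. Genes called went from 1910 to 248, members called lower from 6 to 0, and called genes of the interferon gamma list from 12 to 0. Over the 18 fits without 1 mouse, genes called ran from 1255 (without WT mouse 14) to 2560, members called lower from 5 to 6, and the interferon gamma list from 5 (without WT mouse 14) to 17. With library size scaling alone 67.9% of called genes were higher in place of 50.8%. Signs turned under several settings, and the cause was not tested. With surrogate variables the log2 fold change was 0.34 for *Cd79b*, 0.16 for *Ptprc*, 0.39 for *H2-Ob*, 0.23 for *H2-DMb2*, 0.19 for *Sirpa*, 0.088 for *Aim2*, 0.24 for *Ms4a1* and 0.041 for *Ikzf3*. Without A226Y 29, WT 13 and WT 33 together it was 0.10 for *Cd79a*, 0.34 for *Cd79b*, 0.38 for *H2-Ob*, 0.10 for *H2-DMb2*, 0.0033 for *Cela2a*, 0.014 for *Aim2*, 0.40 for *Ms4a1* and 0.18 for *Ikzf3*. It was 0.029 for *Lcp1* with library size scaling. Over the fits without 1 mouse, values ran from -0.57 to 0.029 for *Cd79a*, -0.35 to 0.21 for *Cd79b*, -0.26 to 0.13 for *H2-Ob*, -0.53 to 0.055 for *H2-DMb2*, -0.67 to 0.055 for *Plac8*, -0.049 to 0.014 for *Lcp1*, -0.29 to 0.062 for *Aim2*, -0.39 to 0.067 for *Ms4a1* and -0.13 to 0.35 for *Btla*. With all mice, edgeR called none of these genes and DESeq2 called *Plac8* lower (-0.65, adjusted p = 0.0108).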
